A study of Mus musculus with 6 samples.

Results

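Bone morphogenetic protein (BMP) signalling was followed through 10 mouse genes that carry, block or report the signal. They are the ligand gene Bmp4, the secreted antagonist genes Grem1 and Nog, the pseudoreceptor gene Bambi, the inhibitory Smad genes Smad6 and Smad7, and the inhibitor of differentiation genes Id1, Id2, Id3 and Id4. They were taken by name, with earlier results of these data known. Each non-control probe whose RefSeq transcript belongs to one of them was read, which gave 11 of the 39429 different probes of the array. All 10 genes had a probe, 9 were well above background, and 8 could be tested among the 15535 genes tested in all.

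The cells were MC3T3-E1, a mouse pre-osteoblast line that lays down mineralised matrix when it is driven to differentiate, grown for 3 days on scaffold. For De-HA (n = 3), the scaffold material, an alloy of iron, manganese and silicon, had been dealloyed, which leaches metal from an alloy, and had then been coated with bioactive material. The FeMnSi group (n = 3) grew on the original scaffold. The labels name no growth factor or other agent in either group, and every sample came from the same line, so both groups share any property of that line. Whether each replicate was a culture of its own is not said, and the spread on which the p-values rest may be technical.

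BMPs are secreted dimers that bind type I and type II serine/threonine kinase receptors, which phosphorylate Smad1, Smad5 and Smad9. These join Smad4, enter the nucleus and switch on target genes, among which the Id genes and Smad6 are direct and rapid. Many targets act back on the pathway: Smad6 and Smad7 block receptor and Smad action, Bambi is a receptor-like protein without a kinase domain, and Noggin and Gremlin 1 bind the ligands outside the cell. In the osteoblast lineage BMPs drive commitment, and Id proteins, which lack a DNA-binding domain, hold basic helix-loop-helix (bHLH) factors in inactive dimers.

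Signals are given as log2 of the processed intensity over the 75th percentile of the array, so 0 is a spot as bright as that percentile. Levels of different genes are not comparable on this scale, because each gene has its own probe. Between 63.5% and 74.4% of the probes of an array stood well above background, and no spot was saturated. The file headers give 2 scan times, with array positions that restart at the second. From these it was inferred, with no slide named, that 4 arrays were on slide 1, namely all of De-HA with FeMnSi 1, and the remaining FeMnSi arrays on slide 2. A value within slide 1 is thus the De-HA mean less FeMnSi 1, and a fit that blocks on the slide gives that same value. With FeMnSi 1 left out, De-HA lies wholly on slide 1 and FeMnSi wholly on slide 2. Such a fit cannot tell scaffold from slide.

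The feedback genes Id2 and Smad6 and the ligand gene Bmp4 were higher, and 1 antagonist gene was lower on the dealloyed and coated scaffold. Id2 rose 2.01-fold, Smad6 1.56-fold and Bmp4 1.56-fold in De-HA, while Grem1 fell 1.89-fold. Id1, Id4, Smad7 and Nog did not pass limma's adjusted p of 0.05, Id3 was not in that fit because 2 of its spots were marked as outliers, and Bambi was not detected. These are 3 higher and 1 lower of 8 tested, where 6.46% of all genes tested were called higher and 4.29% lower. The BMP genes were chosen with earlier results of these data known. The shares and medians of all genes are thus given for scale and do not test the set. The arrays of the groups lay apart for 4 of the 8 in the higher direction and 1 in the lower, against 25.4% and 13.7% of all genes. With the slide as a block 1 gene, Id2, was called, where 0.657% of all genes were called higher and 0.502% lower. With slide 1 alone limma called none of the 8, and it called 0.232% of all genes (0.116% in each direction). At an unadjusted p under 0.05, slide 1 alone gave 3 higher and 1 lower of the 8, and 18.4% of all genes. The median log2 fold change of the 8 was 0.51, against 0.10 over all genes tested, and 6 of the 8 were positive, against 63.1% of all genes. Blocking on the slide gave a median of 0.23, against 0.051 over all genes, and 5 of the 8 were positive, against 58.5%. In these bulk samples, more cells that express a gene and more of its RNA per cell cannot be told apart.

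**Figure D1:**
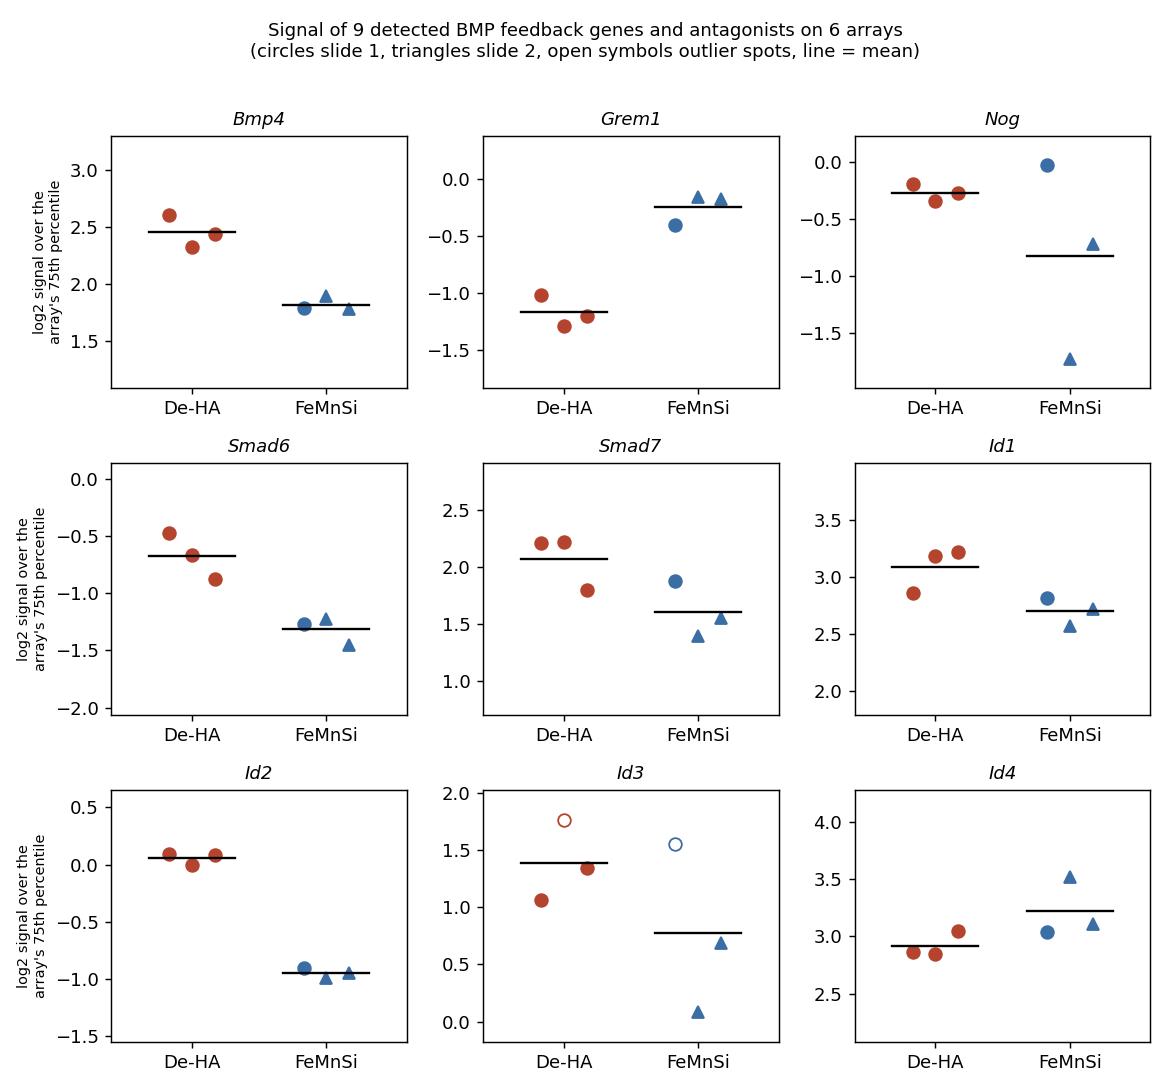
Log2 signal over the 75th percentile of the array for 9 genes, 1 point per array, De-HA left of FeMnSi, with the same length of log2 axis in every panel. Lines are group means over all spots, circles are slide 1, triangles slide 2, and open symbols are spots marked as outliers. Id2, Bmp4, Smad6 and Grem1, and by a narrow margin Id1, have no overlap between the groups, as had 39.1% of all genes tested. The Nog signal on the FeMnSi arrays spreads widely, between -1.72 and -0.03.

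The upstream sequences of the 4 genes that passed are shown because these genes share a pathway and changed in both directions. They are the 250 bases before the annotated start in RefSeq, assembly GRCm38.p6, on the strand of the gene, 5′ to 3′. Id2 lies at chr12:25096093-25096342 (minus strand), Smad6 at chr9:64022060-64022309 (minus strand), Bmp4 at chr14:46390670-46390919 (minus strand) and Grem1 at chr2:113758649-113758898 (minus strand). Capitals mark GGCGCC, the GC-rich palindrome bound by BMP-responsive Smads, and CAGAC or its reverse complement GTCTG, the Smad-binding element.
Id2: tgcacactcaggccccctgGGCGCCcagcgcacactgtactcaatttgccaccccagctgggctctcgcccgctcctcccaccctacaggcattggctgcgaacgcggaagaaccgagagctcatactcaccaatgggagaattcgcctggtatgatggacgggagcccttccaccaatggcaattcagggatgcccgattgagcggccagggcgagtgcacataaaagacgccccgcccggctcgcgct
Smad6: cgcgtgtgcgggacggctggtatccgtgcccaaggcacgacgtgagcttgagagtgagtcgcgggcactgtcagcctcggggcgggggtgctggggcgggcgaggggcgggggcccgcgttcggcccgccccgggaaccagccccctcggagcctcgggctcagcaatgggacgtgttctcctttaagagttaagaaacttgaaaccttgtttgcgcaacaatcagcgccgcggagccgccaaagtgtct
Bmp4: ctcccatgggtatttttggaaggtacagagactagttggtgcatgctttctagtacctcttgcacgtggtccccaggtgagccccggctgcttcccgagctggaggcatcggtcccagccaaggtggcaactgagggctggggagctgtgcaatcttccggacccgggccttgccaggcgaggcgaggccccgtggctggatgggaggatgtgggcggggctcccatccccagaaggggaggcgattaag
Grem1: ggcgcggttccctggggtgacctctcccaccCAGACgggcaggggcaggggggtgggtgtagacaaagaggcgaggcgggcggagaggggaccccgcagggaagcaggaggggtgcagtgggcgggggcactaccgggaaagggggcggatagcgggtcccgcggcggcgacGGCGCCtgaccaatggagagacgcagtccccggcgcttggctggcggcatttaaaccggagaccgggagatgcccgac

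The RefSeq promoter table used here held windows of 6 of the 10 genes, these 4 with Id3 and Id4. GGCGCC occurred once each in the Id2, Id4 and Grem1 windows, starting 231, 148 and 78 bases before the annotated start, and in 9.59% of all 32851 windows of this length. CAGAC or GTCTG occurred at 2 places in Id3 and 1 in Grem1, and in 42.2% of all windows. Smad6 and Bmp4 held neither in these bases. The bHLH site CANNTG, a palindrome that was not put in capitals, occurred 3 times in Bmp4 and once in Id2, with 66.2% of all windows holding it. It was absent from the Smad6, Grem1, Id3 and Id4 windows. The 6 windows were 62.8% (Id2 and Id3) to 75.6% (Id4) G and C, against a median of 52.4% over all windows. Id2 and Grem1, both with GGCGCC, moved in opposite directions, and a match of letters is not a bound site.

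Bmp4 encodes a secreted BMP ligand that drives osteoblast commitment. Its brighter probe read 2.61, 2.33 and 2.44 on De-HA 1, 2 and 3, against 1.79, 1.90 and 1.78 on FeMnSi 1, 2 and 3. Every De-HA array lay above every FeMnSi array. The means were 2.46 ± 0.14 in De-HA and 1.82 ± 0.064 in FeMnSi (SD, n = 3 each), and the log2 fold change was 0.64 ± 0.10 (SE), with a 95% interval of 0.40 to 0.88. The adjusted p was 0.0165, or 0.0866 with the slide as a block, where the value was 0.67. Bmp4 also fell short of the threshold without De-HA 3 (adjusted p = 0.0748) or without FeMnSi 3 (0.0754).

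The second Bmp4 probe was dim. It read -3.81 and -4.24 on De-HA 1 and 2, with -3.04 on De-HA 3 from a spot marked as an outlier, against -4.56 and -4.69 on FeMnSi 2 and 3. On FeMnSi 1 it read -5.55 and was not well above background. With the outlier spot left out and the other 5 arrays fitted, it gave 0.91 ± 0.32 (SE, adjusted p = 0.115 over all such probes), the same sign as the brighter probe.

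Grem1 encodes Gremlin 1, a secreted protein of the DAN family that binds BMP2 and BMP4 and keeps them from their receptors. Its signal was -1.01, -1.29 and -1.20 on De-HA 1, 2 and 3, against -0.40, -0.16 and -0.18 on FeMnSi 1, 2 and 3. The groups did not overlap, and FeMnSi 1, the array that shares a slide with De-HA, was the lowest of its group. The means were -1.17 ± 0.14 in De-HA and -0.25 ± 0.13 in FeMnSi (SD, n = 3 each). Grem1 fell by 0.92 ± 0.11 (SE) on the log2 scale, with an adjusted p of 0.00892, and ranked 143 among all falls by size. Within slide 1 the value was -0.77, and with the slide as a block the adjusted p was 0.0633. It was 0.0513 without De-HA 3 and 0.0510 without FeMnSi 3.

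Nog encodes Noggin, which wraps around BMP dimers and covers their receptor-binding faces. The De-HA arrays agreed closely, at -0.19, -0.34 and -0.27, against -0.03, -1.72 and -0.72 on FeMnSi 1, 2 and 3. FeMnSi 1 lay above all 3 De-HA arrays and both arrays of slide 2 lay below them. The SD was 0.077 in De-HA and 0.85 in FeMnSi, and 98.4% of all genes had a smaller pooled SD. The log2 fold change was 0.55 ± 0.38 (SE, adjusted p = 0.331), with a 95% interval of -0.36 to 1.47, and within slide 1 it was -0.24. Without FeMnSi 1 it was 0.95 and passed, with an adjusted p of 0.0480, a fit in which scaffold and slide coincide. No direction can be given for Nog over the 6 arrays.

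Bambi encodes a transmembrane protein that joins receptor complexes without signalling. Its single probe was not well above background on any array, with processed intensities of 4.995, 2.49 and 2.41 in De-HA and 3.11, 2.62 and 3.12 in FeMnSi. No fold change is given, since both groups were below the level at which the array measures.

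**Figure D2:**
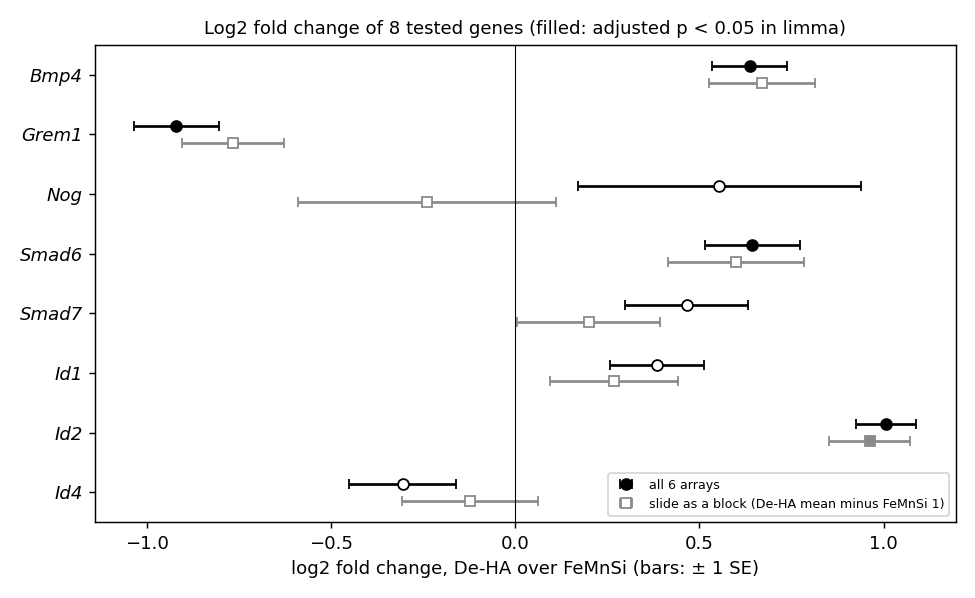
Log2 fold change of De-HA over FeMnSi for 8 genes, with bars of 1 SE, in the fit of all 6 arrays (circles) and with the slide as a block (squares), where filled symbols have an adjusted p under 0.05. Id2, Smad6 and Bmp4 lie to the right and Grem1 to the left in both fits, Id2 stays filled in both, and Nog changes side.

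Smad6 encodes the inhibitory Smad that acts mainly on BMP signals, by competing for Smad1 and by binding type I receptors. Its signal was -0.47, -0.67 and -0.88 on De-HA 1, 2 and 3, against -1.27, -1.22 and -1.45 on FeMnSi 1, 2 and 3. The lowest De-HA array lay above the highest FeMnSi array. The means were -0.67 ± 0.20 in De-HA and -1.32 ± 0.12 in FeMnSi (SD, n = 3 each), and the log2 fold change was 0.64 ± 0.13 (SE, adjusted p = 0.0290). The size held within slide 1, at 0.60, but the adjusted p with the slide as a block was 0.170. Of the fits that leave out 1 array, the one without FeMnSi 1, where scaffold and slide coincide, passed (adjusted p = 0.0256). Leaving out De-HA 1, 2 or 3 gave 0.0721, 0.0934 or 0.0600, and leaving out FeMnSi 2 or 3 gave 0.0660 or 0.105.

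Smad7 encodes the inhibitory Smad that also blocks TGF-beta signals, by bringing ubiquitin ligases to the receptors. Its signal was 2.21, 2.22 and 1.80 in De-HA, against 1.87, 1.40 and 1.55 on FeMnSi 1, 2 and 3. The groups overlapped, with De-HA 3 below FeMnSi 1. The log2 fold change was 0.46 ± 0.17 (SE, adjusted p = 0.111) and 0.20 within slide 1, so that the inhibitory Smad genes both gave positive values and Smad6 alone passed. Without FeMnSi 1, where scaffold and slide coincide, Smad7 gave 0.60 and passed (adjusted p = 0.0358). The difference between the changes of Smad6 and Smad7 was not tested.

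Id2, whose product like the other Id proteins holds bHLH factors off DNA, had the largest value of the 8 genes in the fit of all 6 arrays and the smallest pooled SD. Its margin over Grem1 was not tested, and without De-HA 1 Grem1 was the larger (-0.998 against 0.989 for Id2). Its signal was 0.10, -0.0042 and 0.081 on De-HA 1, 2 and 3, against -0.90, -0.99 and -0.95 on FeMnSi 1, 2 and 3. Both groups were tight and lay far apart, and no more than 4.17% of all genes had a smaller pooled SD than its 0.050. The log2 fold change was 1.01 ± 0.081 (SE), with a 95% interval of 0.81 to 1.20 and an adjusted p of 0.00215. By p-value it ranked 44 among the 15535 genes, and by size 153 among the rises. Within slide 1 the value was 0.96, and with the slide as a block Id2 passed (adjusted p = 0.0250), as did 1.16% of all genes. Whichever single array was left out, Id2 passed (adjusted p between 0.00547 and 0.0236), but with slide 1 alone it missed (0.0685).

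Id1, the Id gene most often used as a readout of BMP signalling, had a signal of 2.86, 3.18 and 3.22 on De-HA 1, 2 and 3, against 2.82, 2.57 and 2.72 on FeMnSi 1, 2 and 3. The groups did not overlap, as for 39.1% of all genes, but De-HA 1 and FeMnSi 1 were nearly level. The log2 fold change was 0.38 ± 0.13 (SE), with a 95% interval of 0.080 to 0.69, and did not pass (adjusted p = 0.0946, 0.27 within slide 1, 0.24 after quantile normalization).

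Id3 had 1 probe, whose spot was marked as non-uniform on De-HA 2 and FeMnSi 1, so it did not enter the fit. The unmarked arrays read 1.06 and 1.34 on De-HA 1 and 3, against 0.087 and 0.69 on FeMnSi 2 and 3. The marked spots read 1.76 on De-HA 2 and 1.55 on FeMnSi 1. Without the marked spots the De-HA arrays were the higher ones, and with them FeMnSi 1 lay above De-HA 1 and 3. The log2 fold change was 0.81 ± 0.24 (SE, adjusted p = 0.0956) from the 4 unmarked arrays, all FeMnSi values then being from slide 2. It was 0.61 ± 0.37 (SE, adjusted p = 0.272) with every spot kept, and -0.17 within slide 1.

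Id4 encodes the Id protein that can also counter its relatives by binding them. Its signal was 2.86, 2.84 and 3.05 in De-HA, against 3.04, 3.52 and 3.11 on FeMnSi 1, 2 and 3. The groups overlapped by a narrow margin, with De-HA 3 just above FeMnSi 1. The log2 fold change of -0.31 ± 0.14 (SE) did not pass (adjusted p = 0.180, -0.12 within slide 1, -0.47 after quantile normalization). The 4 Id genes thus gave 1 call, and the differences between their changes were not tested.

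**Figure D3:**
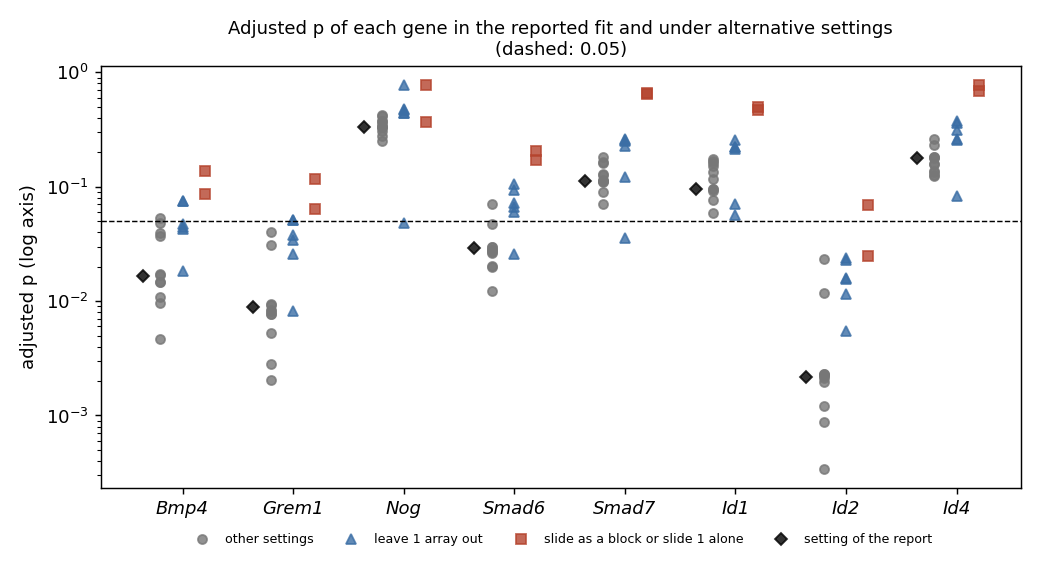
Adjusted p (log axis) of 8 genes in the reported fit (diamonds), in fits that leave out 1 array (triangles), with the slide as a block or slide 1 alone (squares) and under the other settings (circles), with a dashed line at 0.05. Id2 lies under the line except with slide 1 alone, Smad6 crosses it most often of the 4 genes called, and Id1 and Id4 stay above it throughout.

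The level of all genes depended on the scaling, which bears on these values. Quantile normalization put the median over all genes at -0.01 in place of 0.10, and 39.3% of its calls were higher in De-HA, in place of 60.1%. The 4 genes kept their direction and passed there as well, with 0.98 for Id2, 0.61 for Smad6, 0.53 for Bmp4 and -0.94 for Grem1. Adjusted p-values were 0.00224, 0.0266, 0.0394 and 0.00812 in the same order, and 10.3% of all genes passed (4.07% higher and 6.28% lower).

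The other genes of the pathway, from lists chosen with earlier results of these data known, were mostly not called. Among 12 further BMP ligand genes, 9 were detected on at least 1 array and 8 were tested. Gdf6, whose product patterns joints and skull, fell in De-HA by 0.94 ± 0.15 on the log2 scale (SE, adjusted p = 0.0174, or 0.128 with a slide block), with -4.54, -4.72 and -4.45 in De-HA against -3.83, -3.32 and -3.74 in FeMnSi. It missed the threshold without De-HA 1, 2 or 3 or FeMnSi 3 (adjusted p of 0.0567 to 0.0662), and its value was -0.36 after normexp background correction. None rose by limma's adjusted p, where 6.46% of all genes rose and 4.29% fell. The other 7 had positive values, 2 of them with an unadjusted p under 0.05, as had 33.6% of all genes. The list median was 0.31, or 0.17 after quantile normalization, against 0.10 and -0.01 over all genes. Bmp2, Bmp6 and Gdf2 were not detected on any array, and Bmp7 was on 2.

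Among 8 tested receptor and co-receptor genes 1 rose and none fell, where 6.46% of all genes rose and 4.29% fell. Acvr2b, a type II receptor gene shared by activins and BMPs, had a signal of 4.42, 4.86 and 4.53 in De-HA against 4.06, 3.76 and 4.01 in FeMnSi (0.66 ± 0.14 SE, adjusted p = 0.0363). The adjusted p was 0.225 with a slide block, 0.0617 after quantile normalization, and 0.0600 to 0.107 when any array but FeMnSi 1 was left out. Bmpr1b and Hjv were not detected on any array, and Rgma had an outlier spot on some array. The list median was 0.26, or 0.091 after quantile normalization, against 0.10 and -0.01 over all genes. For 11 Smad genes and regulators the median was 0.16, or 0.025 after quantile normalization, against the same 0.10 and -0.01. Of these 11, 1 rose, where 6.46% of all genes did. It was Zfp423, a zinc finger partner of Smads in BMP responses, at 0.63 ± 0.11 (SE, adjusted p = 0.0238, or 0.154 with a slide block), though its 3 probes ran from 0.092 to 0.63 and their mean gave 0.36. It missed without De-HA 2 or 3 or FeMnSi 2 or 3 (adjusted p of 0.0664 to 0.0862). The receptor-regulated Smad genes Smad1, Smad5 and Smad9 gave -0.046, 0.093 and 0.34 and did not pass. Smad1 and Smad5 had 2 kept probes each, which differed in sign: -0.046 and 0.37 for Smad1, -0.096 and 0.093 for Smad5. These Smad genes lie outside the naming rule and were picked with their values seen.

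Of 15 tested antagonists and modulators other than Grem1 and Nog, 2 rose and none fell, where 6.46% of all genes rose and 4.29% fell. The list median was 0.28, or 0.20 after quantile normalization, against 0.10 and -0.01 over all genes. Fst encodes follistatin, which traps activins and some BMPs. Its signal was 4.23, 4.19 and 4.31 in De-HA, against 3.47, 3.09 and 3.16 in FeMnSi. Fst rose 2.01-fold, by 1.01 ± 0.12 on the log2 scale (SE, adjusted p = 0.00801). It passed with a slide block (0.78, adjusted p = 0.0448) and whichever single array was left out, and missed with slide 1 alone (0.0931). Chrdl1, which encodes a chordin-like BMP antagonist, rose by 0.79 ± 0.14 (SE, adjusted p = 0.0230, or 0.0613 with a slide block), with its 3 probes between 0.26 and 0.79, and missed without De-HA 1, 2 or 3 or FeMnSi 3 (0.0695 to 0.0878). Thus Grem1 fell while Fst and Chrdl1 rose. Chrdl2 and Sost were not detected on any array.

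Among 9 tested genes that BMPs can induce in osteoblasts, 5 rose and none fell, where 6.46% of all genes rose and 4.29% fell. All 9 values were positive, against 63.1% of all genes, with a median of 0.51 against 0.10. The transcription factor gene Atoh8 had a signal of -2.73, -2.80 and -3.04 in De-HA, against -3.71, -3.97 and -3.99 in FeMnSi. It rose by 1.03 ± 0.12 (SE, adjusted p = 0.00827) and passed whichever single array was left out, but missed with a slide block (0.85, adjusted p = 0.0613). Alpl, Sp7 and Runx2, which mark the osteoblast lineage and answer to other signals too, rose by 0.85, 0.64 and 0.56, as did Msx2 by 0.51, a gene outside the naming rule that was picked after its value was seen. Alpl, Sp7 and Runx2 passed without FeMnSi 1, where scaffold and slide coincide. They missed when any other array was left out (adjusted p of 0.0527 to 0.113). After normexp the values of Atoh8, Alpl, Sp7 and Runx2 were 0.43, 0.25, 0.39 and 0.32, and all 4 passed. With a slide block the adjusted p was 0.141 for Alpl, 0.207 for Sp7, 0.152 for Runx2 and 0.231 for Msx2, which also missed after quantile normalization (0.0512). The 5 bHLH genes whose products pair with Id proteins or with each other did not pass in limma, where 10.7% of all genes did. Of these 5, 1 had an unadjusted p under 0.05, as had 33.6% of all genes. The bHLH genes ran from Tcf4 at 0.29 (adjusted p = 0.0872, probes -0.049 and 0.29) to Twist2 at -0.17 (adjusted p = 0.604, 0.32 within slide 1). Their median was 0.061, or -0.065 after quantile normalization, against 0.10 and -0.01 over all genes.

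**Figure D4:**
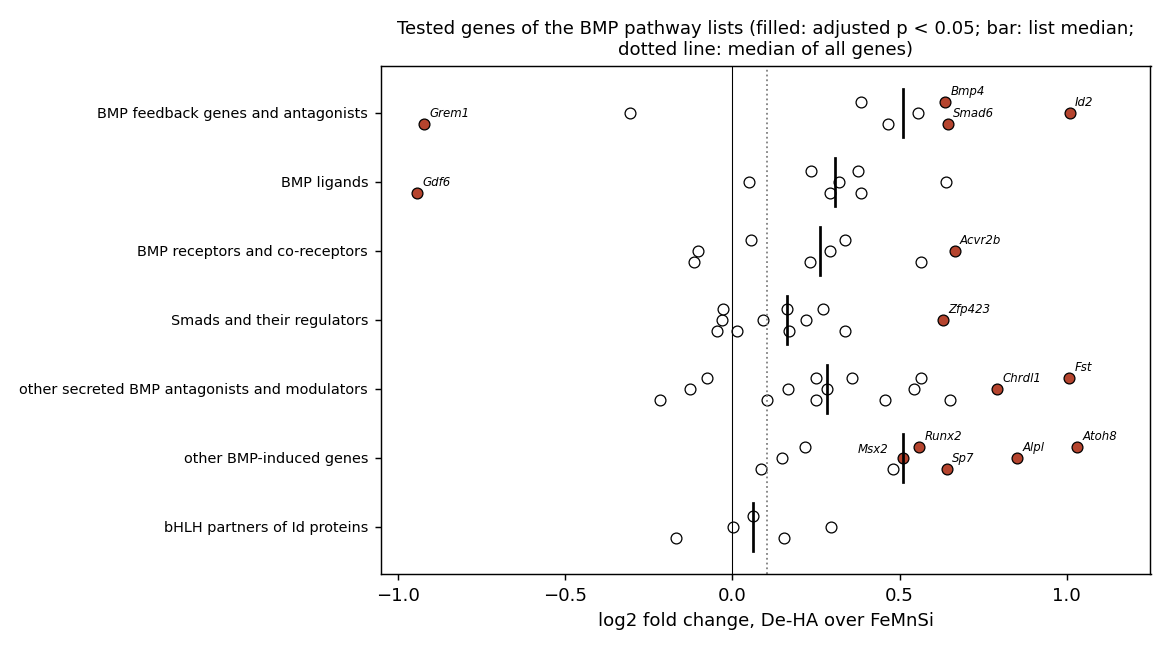
Log2 fold change of De-HA over FeMnSi for each tested gene of 7 lists, with filled points at an adjusted p under 0.05, a bar at the list median and a dotted line at the median of all genes, 0.10. The genes called lower are Grem1 and Gdf6, and the induced genes all lie to the right of 0.

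The labelled line was checked against markers. Of the osteoblast markers 10 had a probe and all 10 were detected. Of these, 4 rose (Runx2, Sp7, Alpl and Ibsp) and 1, Spp1, fell, where 6.46% of all genes rose and 4.29% fell. Runx2, Sp7 and Alpl were already counted above among the genes that BMPs can induce. The kept probes of Ibsp gave 0.17 and 0.79. Of the smooth muscle genes 5 of 6 tested rose, and their summed signal, in multiples of the 75th percentile, was 67.6 to 69.4 in De-HA and 23.4 to 24.9 in FeMnSi. For chondrocyte markers, 1 of 3 tested rose (Col2a1), with sums of 21.6 to 22.4 in De-HA and 14.95 to 15.5 in FeMnSi. For macrophage markers, 2 of 4 tested rose and 1 fell, with Tyrobp undetected and sums of 1.07 to 1.24 in De-HA and 0.683 to 0.908 in FeMnSi. Endothelial markers, of which Cdh5, Tek and Emcn were undetected, had 1 of 2 higher and sums of 0.8025 to 0.8862 in De-HA and 0.628 to 0.649 in FeMnSi. Adipocyte markers, with Adipoq undetected, had 1 of 5 lower (Fabp4) and sums of 0.259 to 0.271 in De-HA and 0.334 to 0.370 in FeMnSi. With the slide as a block, 4 smooth muscle genes and Col2a1, Spp1 and Fabp4 still passed, as did 1.16% of all genes (0.657% higher and 0.502% lower). The macrophage and endothelial markers called above missed in that fit (adjusted p of 0.0711 to 0.278). The part of these marker levels in the changes of the BMP genes was not tested.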

How the data were processed

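RNA of MC3T3-E1 cells on De-HA or FeMnSi scaffold (3 samples each) was labelled with Cy3 and hybridised to 1 Agilent array per sample. Per the file headers, the deposited intensity values (processed signals) had their background removed and were detrended by Agilent Feature Extraction 11.0.1.1, also named in the submitters' processing notes, with no scaling between arrays. The authors' deposited series matrix holds log2 values whose columns share a median of 5.77. It served as an alternative, and no label or header gives the steps that made it.

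Each array's 75th percentile was subtracted from its log2 processed signals. Outlier spots were dropped, and the spots of each probe averaged. A probe was kept if it had a value on all 6 arrays and stood well above background on 3 or more. Through RefSeq accessions, in the annotation of GRCm38.p6, 27234 of 39429 probes got 1 symbol. The array design names mm9, so no gene coordinates were taken over, and promoters were found by symbol. The brightest probe stood for a gene, which left 15535 genes. De-HA was compared with FeMnSi with limma 3.58.1 in R 4.3.3, with Benjamini-Hochberg adjustment over all genes and a threshold of 0.05, and the script was tested on simulated data. Figures used matplotlib 3.10.9. All members were named, and in each further list the 4 called genes of lowest p-value, or without calls the 2 genes of lowest p-value. The members and lists were chosen with earlier results of these data known. Alternatives covered scaling, background correction, filters, probes, outlier spots, slide, replicate number and each array left out. The files hold no mean spot signal, so normexp used median spot signals. The number of arrays limits the precision.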

Additional observations from a re-analysis of the deposited data

How the results depend on the processing

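With 3 arrays a group, the number of genes called was the value that moved most: 1669 in the reported fit, against 519 with dim probes kept, 180 with the slide as a block, 36 with slide 1 alone and 227 to 4611 with 1 array left out, the highest without FeMnSi 1. Of the BMP feedback genes and antagonists, 3 were higher and 1 lower in the reported fit. With the slide as a block limma called 1 higher and 0 lower, and with slide 1 alone 0 higher and 0 lower, where 3 higher and 1 lower had an unadjusted p under 0.05 in each, as had 18.7% and 18.4% of all genes. Leaving out 1 array gave 1 to 5 higher and 0 to 1 lower, with 1 higher and 0 lower without De-HA 3 or FeMnSi 3. The 5 came without FeMnSi 1, where scaffold and slide coincide. The median log2 fold change of the tested members, 0.51, was 0.38 after normexp, 0.23 with the slide as a block or slide 1 alone, and 0.34 to 0.61 with 1 array left out. Under the slide block and under slide 1 alone, Nog reversed to -0.24 and Twist2 to 0.32. With 1 array left out Twist2 ran between -0.41 and 0.016, the one reversal being without FeMnSi 2. The share of all calls that were higher in De-HA, 60.1%, was 40.6% after normexp and 41.3% in the series matrix. The cause was not tested. Id2, Smad6, Bmp4 and Grem1 kept their sign under all 19 alternatives and passed in 18, 11, 14 and 15 of them. Several alternatives could not change a sign, because they left the fold change as it was. For Id2 it stayed at 1.008 with dim probes kept, a stricter filter, probes averaged, outlier spots kept, an intensity trend or a replicate block. Without the filter on dim probes Smad6 did not pass in limma (adjusted p = 0.0711).

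Replicate numbers are shared between the groups in the labels, but same-numbered arrays did not deviate together (correlations across genes of 0.007, -0.106 and 0.115). With a replicate block, 693 genes passed, and Bmp4 alone of the 4 genes did not (adjusted p = 0.0535). An alternative that kept probes with an outlier spot on some array was chosen after seeing the data.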
